A study of Mus musculus with 6 samples.

Results

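Perineuronal nets are lattices of extracellular matrix around the cell body and proximal dendrites of some neurons, most often fast-spiking interneurons that contain parvalbumin. Their backbone is hyaluronan, to which proteoglycans of the lectican family bind by their amino-terminal domain, while small link proteins clamp that bond and tenascin-R cross-links the lecticans at their other end. Astrocytes, oligodendrocyte precursors and neurons all secrete parts of the net. The 8 genes described here are the lectican genes Acan (aggrecan), Bcan (brevican), Ncan (neurocan) and Vcan (versican), the link protein genes Hapln1 and Hapln4, the tenascin-R gene Tnr, and Ptprz1, which encodes a receptor-type phosphatase whose secreted splice form, phosphacan, is a matrix proteoglycan. They were chosen by name, and all 8 were among the 13170 genes of the deposited table.

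Poly(A) RNA was sequenced from brain tissue of C57 mice, with 3 libraries from mice whose sexual motivation was labelled high and 3 from mice in which it was labelled low. The title of the series gives adult males and the medial amygdala, whereas the extraction protocol gives the abbreviation PrL for the tissue. No allele, treatment or age in weeks or months is given for either group, nor how motivation was scored or whether a library came from 1 animal, so a p-value here reflects no more than library-to-library spread, part of which may be technical. Values are FPKM, which count fragments relative to transcript length and to sequencing depth, so that levels can be compared between genes. A difference is the mean log2(FPKM + 1) of the high group minus that of the low group.

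The net genes covered a wide range of levels. Bcan was the most abundant at 72.8 ± 5.48 FPKM (mean ± SD over all 6 libraries), above 96.3% of the listed genes. Ncan followed at 36.1 ± 2.94, Hapln4 at 29.5 ± 3.30, Ptprz1 at 13.2 ± 1.97 and Tnr at 12.9 ± 0.628. Hapln1 stood at 2.22 ± 0.590, Vcan at 0.910 ± 0.119 and Acan, whose product is a classical marker of the mature net, at 0.620 ± 0.179, above 2.29% of the listed genes.

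Several neighbours in this order were not separated by their spread. Ptprz1 exceeded Tnr in 4 of 6 libraries, with a mean ratio of 1.03 ± 0.176. Ncan exceeded Hapln4 in all 6 libraries (mean ratio 1.24 ± 0.171), although the range of Ncan began at 32.8 FPKM and that of Hapln4 reached 33.2. Vcan exceeded Acan in all 6 libraries too (mean ratio 1.56 ± 0.450), again with overlapping ranges. The other steps, such as Bcan over Ncan (mean ratio 2.03 ± 0.210) and Tnr over Hapln1 (6.26 ± 2.24), had no overlap.

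**Figure D1:**
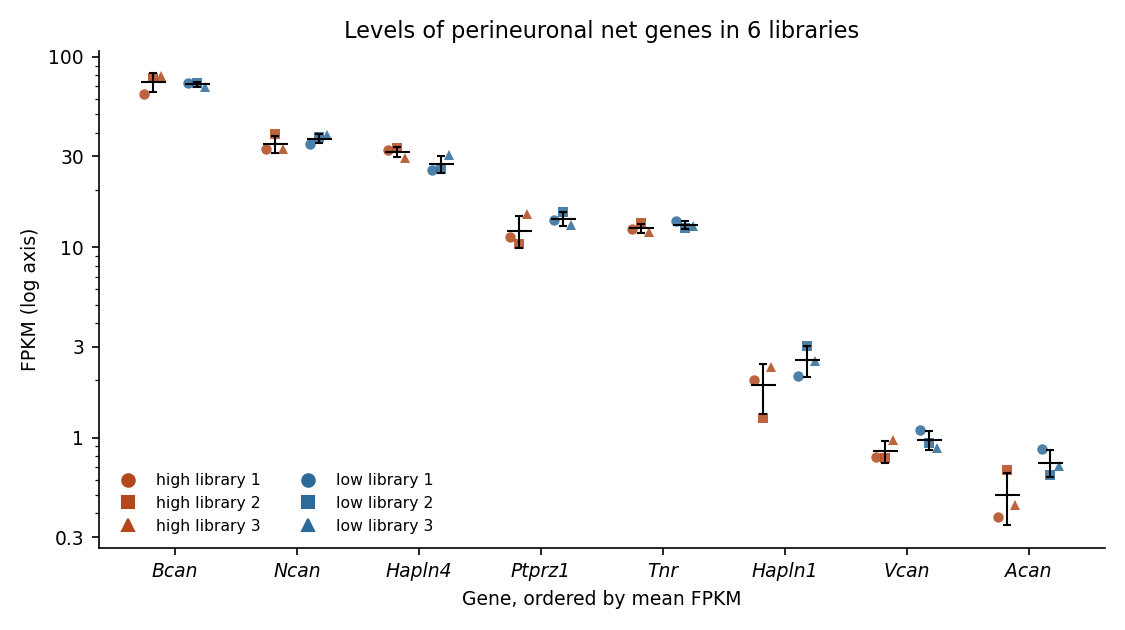
FPKM of the 8 genes on a log axis, with 1 point per library (circle, square and triangle for libraries 1, 2 and 3) and the group mean ± SD in black. The genes run from Bcan at 72.8 FPKM to Acan at 0.620 FPKM, and for each of them the high (orange) and low (blue) libraries overlap.

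Within the lecticans the transcripts were those of brevican and neurocan for the most part. Bcan made up 65.9% ± 2.17 and Ncan 32.7% ± 2.15 of the summed FPKM of the 4 lectican genes (SD over 6 libraries), against 0.826% ± 0.110 for Vcan and 0.559% ± 0.154 for Acan. The sum of the 4 was 98.2, 119 and 113 FPKM across the high libraries and 110, 113 and 110 across the low libraries. The groups thus had means of 110 ± 10.6 and 111 ± 1.82, with the high library 1 lowest and the high library 2 highest of all 6.

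The comparison of high with low motivation asked whether the net genes differed with the behaviour. The groups overlapped for all 8 genes, and limma called 0 of the 8 at an adjusted p under 0.05 over all genes, as it called 0 of 12026 genes (0%) in the whole table. Hapln4 had a higher mean in the high group, at 31.8 ± 1.97 FPKM against 27.2 ± 2.76 (SD, n = 3 per group). Hapln1 and Acan had lower means in the high group, at 1.88 ± 0.554 against 2.56 ± 0.469 and at 0.501 ± 0.154 against 0.739 ± 0.119. The ratio of the high to the low mean was 1.03 for Bcan, 0.939 for Ncan and 0.961 for Tnr.

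By direction alone, 2 of the 8 genes had a positive and 6 a negative difference, where 49.8% of all listed genes had a negative one. The median difference of the 8 was −0.094, and that of all genes tested was 0.00018. At an unadjusted p under 0.05 by limma there was 1 of the 8 genes, Hapln4, where 8.39% of all genes passed that level. Groups without overlap were found in 0 of the 8, and in 14.8% of all listed genes. In bulk tissue, fewer cells of a type and less RNA per cell cannot be told apart.

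Brevican, the shortest lectican and largely a product of astrocytes and oligodendrocyte precursors, was nearly level. Bcan had 64.2, 77.9 and 79.0 FPKM across the high libraries and 72.8, 73.3 and 69.4 across the low libraries, so that the high library 1 lay below and the other two above the whole low group. Its difference was 0.031 by limma (SE 0.0877, 95% interval −0.17 to 0.23, adjusted p = 0.931). The sign turned negative under some other settings, at −0.0027 with quantile normalization, −0.025 once trends of GC content and length were taken out and −0.042 with library weights.

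Neurocan is abundant in the developing brain and persists in adult nets. Ncan had 32.8, 39.2 and 32.8 FPKM across the high libraries and 34.9, 37.95 and 38.8 across the low libraries. The high libraries 1 and 3 were below every low library, and the high library 2 was the highest of all 6. The difference was −0.091 by limma (SE 0.0852, 95% interval −0.29 to 0.11, adjusted p = 0.764), with −0.17 when the high library 2 was left out (adjusted p = 0.400), −0.050 without the high library 1 and −0.049 without the high library 3.

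Aggrecan and versican were close to the lower limit of the deposited table, whose lowest mean is 0.50 FPKM, and below the minimum mean of 1 FPKM used for the main test. They were tested in a fit of that model to the 13170 listed genes without the filter. Acan had 0.385, 0.676 and 0.442 FPKM across the high libraries and 0.870, 0.638 and 0.708 across the low libraries. The high libraries 1 and 3 lay below the whole low group, and the high library 2 lay between the low libraries 2 and 3. The ratio of the group means was 0.678, and the difference was −0.21 (limma, SE 0.112, 95% interval −0.47 to 0.043, unadjusted p = 0.0910, adjusted p = 0.614). It was −0.50 with a pseudocount of 0.1 in place of 1, which compresses low values less, and with 1 library left out it ranged from −0.30, without the high library 2, to −0.16, without the high library 1.

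Versican, a lectican of looser matrix that oligodendrocyte precursors and fibroblasts also make, varied less. Vcan had 0.790, 0.779 and 0.972 FPKM across the high libraries and 1.09, 0.942 and 0.884 across the low libraries. The high libraries 1 and 2 were the lowest of all 6, and the low library 1 was the highest. Its difference was −0.096 (limma, SE 0.0953, 95% interval −0.32 to 0.12, adjusted p = 0.783), with −0.14 when the high library 3 was left out and −0.052 without the low library 1.

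The link protein genes had the largest positive and the largest negative difference of the 8. Hapln4 encodes the link protein Bral2, which accompanies brevican in nets. It had 32.6, 33.2 and 29.6 FPKM across the high libraries and 25.5, 25.7 and 30.4 across the low libraries. The high libraries 1 and 2 exceeded every low library, while the high library 3 was below the low library 3. The difference was 0.22 by limma (SE 0.0851, 95% interval 0.023 to 0.42), with an unadjusted p of 0.0327 and an adjusted p of 0.582. The unadjusted p was 0.0878 without the high library 1, 0.0810 without the high library 2, 0.115 without the low library 1 and 0.105 without the low library 2. Without the low library 3 the difference was 0.30 (unadjusted p = 0.00623 by limma, adjusted p = 0.695). Without the high library 3 it was 0.27 (unadjusted p = 0.0216 by limma, adjusted p = 0.590).

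Hapln1 encodes cartilage link protein, which net-bearing neurons express and which stabilises aggrecan on hyaluronan. It had 2.02, 1.27 and 2.36 FPKM across the high libraries and 2.10, 3.04 and 2.54 across the low libraries. The high library 2 was far below the rest and the low library 2 above them, and the high library 3 lay within the low range. The difference was −0.31 by limma (SE 0.161, 95% interval −0.69 to 0.058, unadjusted p = 0.0874, adjusted p = 0.607). Without the high library 2 it was −0.15, without the low library 2 it was −0.22, and without the high library 3 it was −0.43.

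Tenascin-R, made mainly by oligodendrocytes and some interneurons, was the steadiest of the 8. Tnr had 12.4, 13.4 and 12.1 FPKM across the high libraries and 13.8, 12.7 and 12.9 across the low libraries. Its coefficient of variation over the 6 libraries was 4.88%, against a median of 9.33% over all genes tested and 28.9% for Acan. The difference was −0.053 by limma (SE 0.0671, 95% interval −0.21 to 0.10, adjusted p = 0.830), and lay between −0.092, without the high library 2, and −0.020, without the low library 1.

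Ptprz1 is expressed by astrocytes and oligodendrocyte precursors. The deposited value is 1 per gene, so the receptor and phosphacan cannot be told apart. It had 11.4, 10.4 and 14.9 FPKM across the high libraries and 13.9, 15.4 and 13.02 across the low libraries, with the high libraries 1 and 2 below the whole low group and the high library 3 inside it. The difference was −0.20 by limma (SE 0.125, 95% interval −0.49 to 0.089, adjusted p = 0.664), with −0.34 when the high library 3 was left out (adjusted p = 0.590). It was −0.10 without the high library 2 (adjusted p = 0.817 by limma) and −0.14 without the low library 2. Like Hapln1, it was lowest in the high library 2 and highest in the low library 2.

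**Figure D2:**
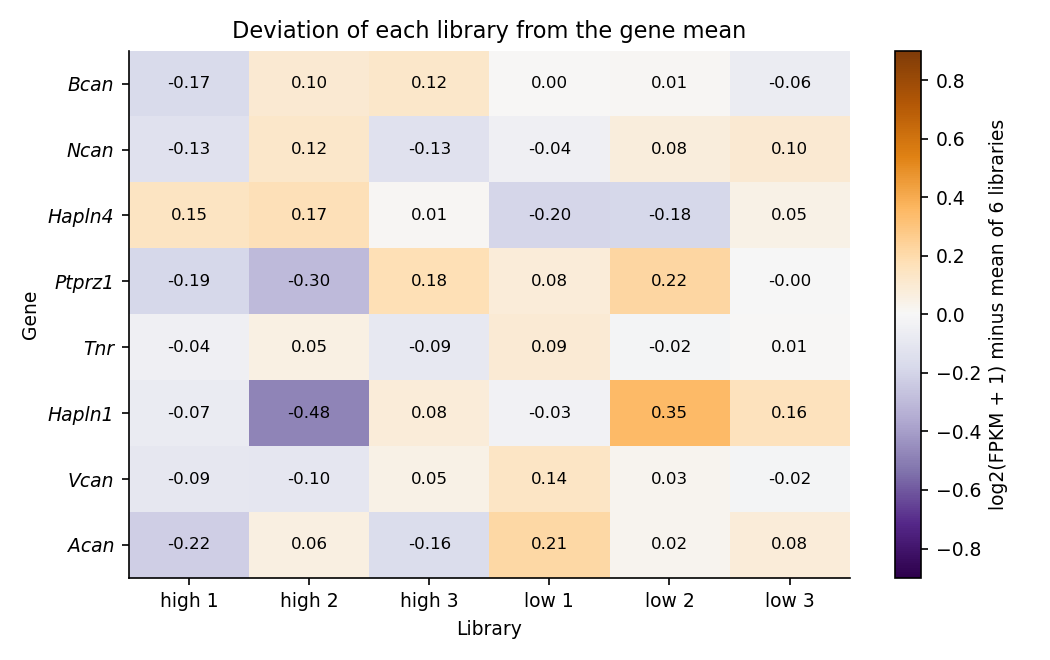
Deviation of log2(FPKM + 1) in each library (columns) from the mean of the 6 libraries, for each gene (rows), printed in each cell and coloured orange above and purple below the mean. The largest deviations are those of Hapln1, −0.48 in high library 2 and 0.35 in low library 2, and no column has the same sign in all 8 genes.

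**Figure D3:**
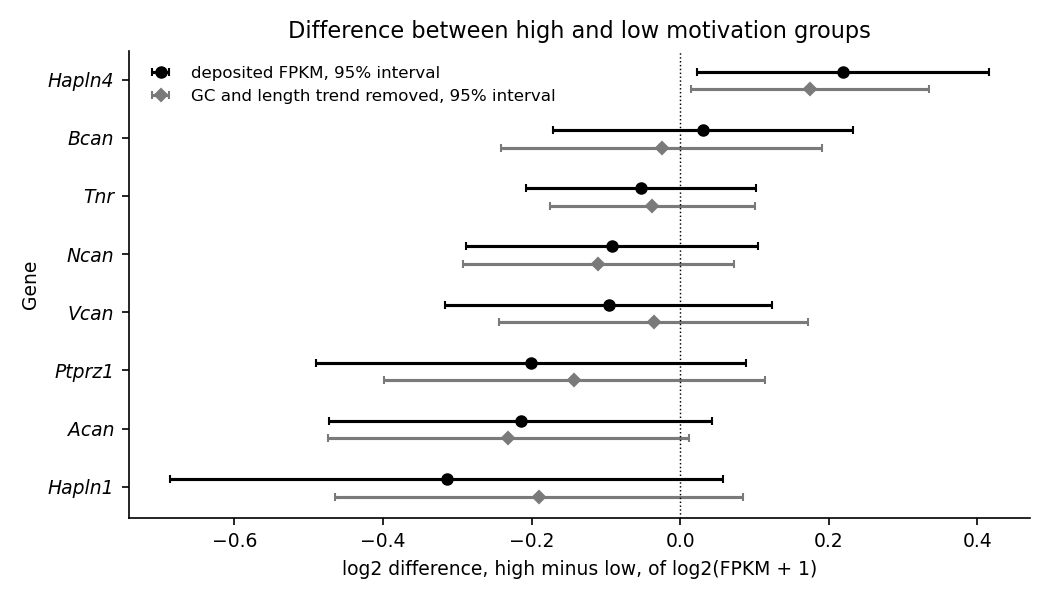
Difference between the group means of log2(FPKM + 1), high minus low, for each gene with its 95% interval by limma, from the deposited FPKM (black) and once the trends of transcript GC content and length were taken out (grey). The black interval holds 0 for 7 of the 8 genes, the exception being Hapln4 at 0.22, and these intervals carry no adjustment for the number of genes.

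The high library 2 was the deepest library, with 1.33 times the depth of the high library 1, and the low library 2 was next with 1.25 times. These are relative depths, read from the most common ratio of FPKM between libraries among 1428 low genes, and absolute depth is unknown. The high library 2 also stood apart on the second principal component of all genes tested, at −20.2 where the other libraries had 2.28 to 5.43. Their part in the low Hapln1 and Ptprz1 values and the high Ncan value of the high library 2 was not tested.

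Base composition moved with the groups over all genes. The difference between the groups followed transcript GC content with a Spearman rho of 0.387, across 11910 genes that are not independent replicates. By its longest annotated transcript, Hapln1 has the lowest GC content of the 8, 39.8%, followed by Vcan at 43.7% and Ptprz1 at 44.5%, while Hapln4 has 57.0% and Bcan 60.7%. Once spline trends of GC content and length were taken out of each library, the difference was −0.19 for Hapln1, −0.035 for Vcan, −0.14 for Ptprz1 and 0.18 for Hapln4. That of Acan, with 54.8% GC, was −0.23 and that of Ncan, with 55.1%, was −0.11. The trend removal brought 6 of the 8 differences closer to 0 and limma again called 0 of the 8.

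Each lectican gene has a link protein gene as its neighbour in the mouse genome (GRCm38, GENCODE positions), with 0 protein-coding genes between them. Ncan lies on chromosome 8 from 70093085 to 70120873 on the minus strand, and Hapln4 lies from 70083457 to 70090862 on the plus strand, 2222 bases away and facing it. Vcan, on chromosome 13 from 89655312 to 89742509, and Hapln1, from 89539796 to 89611652, also face each other across 43.7 kb. Acan, on chromosome 7 from 79053483 to 79115099, and Hapln3, from 79115102 to 79131018, end 2 bases apart on opposite strands. Bcan, on chromosome 3 from 87987531 to 88000230, and Hapln2, from 88021750 to 88027583, lie on the same strand 21.5 kb apart. Tnr and Ptprz1 are on chromosomes 1 and 6. The library kit keeps strand, but the sources used here do not say whether counting used it, and reads from the abutting ends of Acan and Hapln3 may be mixed.

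The balance of link protein to lectican transcripts was compared within each library, in 13 ratios, shares and sums that were chosen after the values of the genes were seen. Because of that choice, the permutation p-values below are descriptive only. Hapln4 was set against Ncan, its neighbour in the genome, and no ratio of Hapln4 to Bcan, the most abundant lectican gene, was among the 13. The FPKM of both genes show that Hapln4 over Bcan did not separate the groups. The high library 3 had less Hapln4 (29.6 against 30.4) and more Bcan (79.0 against 69.4) than the low library 3. The high library 1 had more Hapln4 (32.6 against 25.5) and less Bcan (64.2 against 72.8) than the low library 1. Hapln4 over Ncan was 0.993, 0.848 and 0.901 across the high libraries and 0.732, 0.678 and 0.784 across the low libraries. All 3 high libraries were above all 3 low libraries, with means of 0.914 ± 0.0732 and 0.731 ± 0.0531. The exact 2-sided permutation p was 0.1, the smallest that 3 against 3 libraries can give, and 0.433 after Benjamini-Hochberg adjustment over the 13 quantities. The difference of 0.183 between these means was 0.143 to 0.216 with 1 library left out and 0.169 once GC and length trends were taken out.

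Hapln4 over Hapln1 did not overlap either, at 16.1, 26.1 and 12.5 across the high libraries against 12.1, 8.47 and 11.97 (exact permutation p = 0.1, adjusted 0.433). The margin between the high library 3 and the low library 1 was narrow. The difference of the group means of this ratio was 7.39, but 3.48 without the high library 2 and 4.61 once GC and length trends were taken out. Hapln2, the link protein gene of the nodes of Ranvier, relative to Bcan was the third quantity without overlap of the 13, at 0.0674 ± 0.0175 against 0.0469 ± 0.00175 (exact permutation p = 0.1, adjusted 0.433). Its difference of 0.0205 was 0.0110 without the high library 1. The other quantities without overlap share Hapln4. Groups without overlap occurred in 14.8% of all listed genes. That share is for single genes and gives no measure for ratios chosen after the values were seen. Hapln1 over Vcan (2.21 ± 0.497 against 2.67 ± 0.676) and Hapln3 over Acan (1.30 ± 0.425 against 0.793 ± 0.429) overlapped between the groups. The summed FPKM of Hapln1 and Hapln4 over that of the 4 lecticans overlapped as well, at 0.308 ± 0.0384 against 0.269 ± 0.0269.

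**Figure D4:**
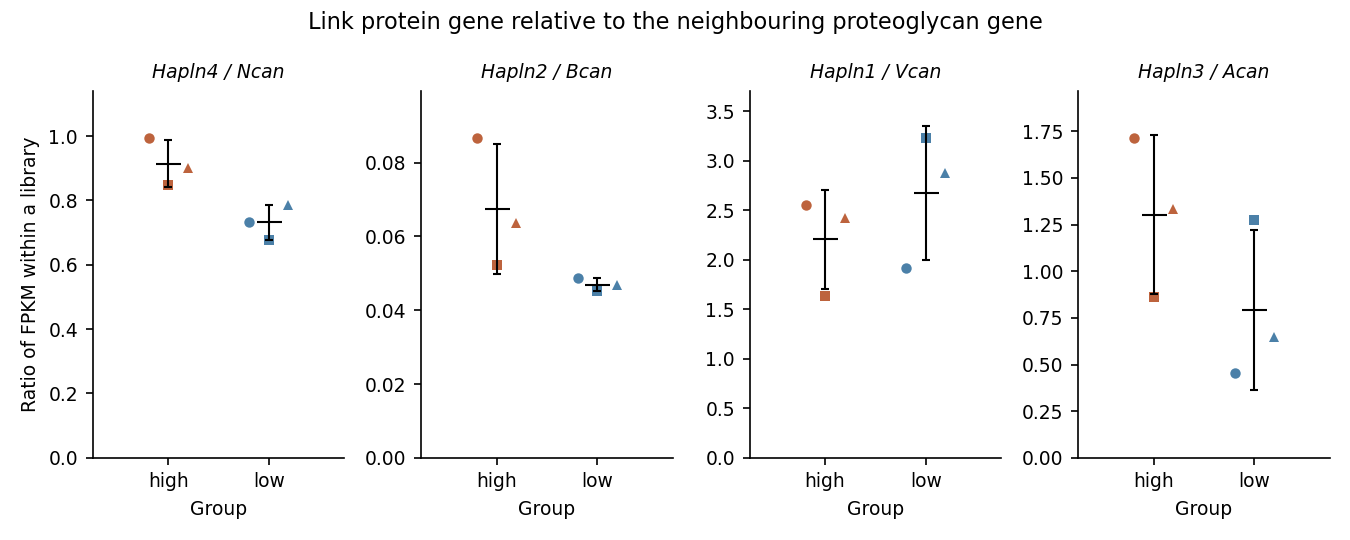
Ratio of the FPKM of each link protein gene to that of the lectican gene beside it in the genome, by group, with 1 point per library (circle, square and triangle for libraries 1, 2 and 3), the mean ± SD in black and axes that start at 0. Hapln4 over Ncan and Hapln2 over Bcan separate the 3 high from the 3 low libraries, and the other ratios overlap.

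The remaining link protein genes were read beside these. Hapln2 had 5.56, 4.06 and 5.02 FPKM across the high libraries and 3.54, 3.31 and 3.25 across the low libraries, a difference of 0.42 without overlap (limma, SE 0.104, unadjusted p = 0.00376, adjusted p = 0.505). Myelin and oligodendrocyte markers had positive differences in 14 of 15 genes tested, Mobp with 0.30 among them, and their summed FPKM spanned 405 to 484 in the high and 374 to 412 across the low libraries. Of these markers, 5 of the 15 had an unadjusted p under 0.05 by limma, against 8.39% of all genes. For 4 of these markers the groups did not overlap, against 14.8% of all listed genes. Their part in the Hapln2 value was not tested. Hapln3 stood at 0.611 ± 0.0413 against 0.556 ± 0.225 FPKM.

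Genes for hyaluronan binding and turnover had 5 of 7 tested genes with a positive and 2 with a negative difference. Their median was 0.16 against 0.00018 over all genes tested. No hyaluronan synthase gene was among the 7. Has3, the synthase gene that was listed, was below the minimum mean, at 0.821 ± 0.0896 against 0.809 ± 0.0200 FPKM. At an unadjusted p under 0.05 there were 2 of the 7, against 8.39% of all genes. They were Hapln2 and Stab1, the gene of a scavenger receptor that takes up hyaluronan among other ligands (2.43 ± 0.266 against 1.88 ± 0.238 FPKM). Limma called 0 of the 7 over all genes.

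The list for the chondroitin chains of the lecticans, mostly genes that build and sulphate them, had 10 of 23 tested genes with a positive difference. The other 13 had a negative one, and some of those act instead in removing sulphate. The median of the list was −0.0043. Limma called 0 of the 23 over all genes. At an unadjusted p under 0.05 there were 5 of the 23, 1 with a higher and 4 with a lower mean in the high group, where 4.12% and 4.27% of all genes did so. Those with lower means were Chst7, which sulphates the galactosamine of the chain (0.784 ± 0.188 against 1.499 ± 0.224 FPKM), and Csgalnact1, which starts it (3.58 ± 0.376 against 4.66 ± 0.464). Chst7 had a high-group mean under 1 FPKM and passed the minimum mean only through the low group. Chsy1, which extends the chain, had 3.18 ± 0.361 against 3.98 ± 0.106, and Ust, which sulphates its uronic acid, had 4.60 ± 0.480 against 5.46 ± 0.0375. In each of these 4 genes all 3 high libraries were below all 3 low libraries, while 2 genes of the list, B3galt6 and Chpf2, had all high libraries above all low ones, and groups without overlap occurred in 14.8% of all listed genes. These 2 names were added after their values were seen. The adjusted p by limma was 0.505 for Chst7, 0.553 for Csgalnact1, 0.564 for Chsy1 and 0.582 for Ust.

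Receptors and ligands of the net proteoglycans had 10 of 22 tested genes with a positive and 12 with a negative difference, a median of −0.056 and 0 called by limma. At an unadjusted p under 0.05 there were 4 of the 22, against 8.39% of all genes. Cntn1, the gene of contactin-1, a neuronal partner of tenascin-R and phosphacan, had 25.5, 23.6 and 26.2 FPKM across the high libraries and 29.8, 27.4 and 30.1 across the low libraries (difference −0.20, limma adjusted p = 0.564). Mdk, the gene of midkine, a ligand of Ptprz1, had 8.56 ± 0.970 against 10.05 ± 0.541. Cntn2, the gene of contactin-2 of axons and myelin, had 16.0 ± 2.12 against 12.9 ± 0.523.

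Otx2 encodes a homeoprotein that the choroid plexus secretes and that net-bearing neurons take up. It had 0.0664, 0.187 and 0.0920 FPKM across the high libraries and 2.11, 0.173 and 7.48 across the low libraries. The low libraries 1 and 3 stood apart in the same way in choroid plexus markers, of which 13 of 13 tested had a negative difference. Their summed FPKM, in which Otx2 is included, was 42.5 to 112 across the high libraries and 83.2 to 4200 across the low libraries, with Ttr at 33.5 to 102 and 73.5 to 4016. The median difference of these markers was −1.55, and −0.077 without the low libraries 1 and 3. Most of these markers, Otx2 among them, had a high-group mean under 1 FPKM and passed the minimum mean only through the low group.

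The matrix proteases and their inhibitors had 11 of 16 tested genes with a positive difference, a median of 0.044 and 0 called by limma. Prss12, the gene of neurotrypsin, a protease that cuts agrin, was the 1 gene of the 16 at an unadjusted p under 0.05, a level that 8.39% of all genes reached (4.43 ± 1.29 against 6.03 ± 0.642 FPKM, limma adjusted p = 0.583). Other brain proteoglycans and tenascins had 8 of 17 genes with a positive difference, a median of −0.0049 and 0 called. In that list too, 1 gene of the 17 had an unadjusted p under 0.05. It was Sparc, the gene of a matrix glycoprotein of glia and vessels, at 161 ± 36.6 against 125 ± 5.20 (limma adjusted p = 0.583).

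**Figure D5:**
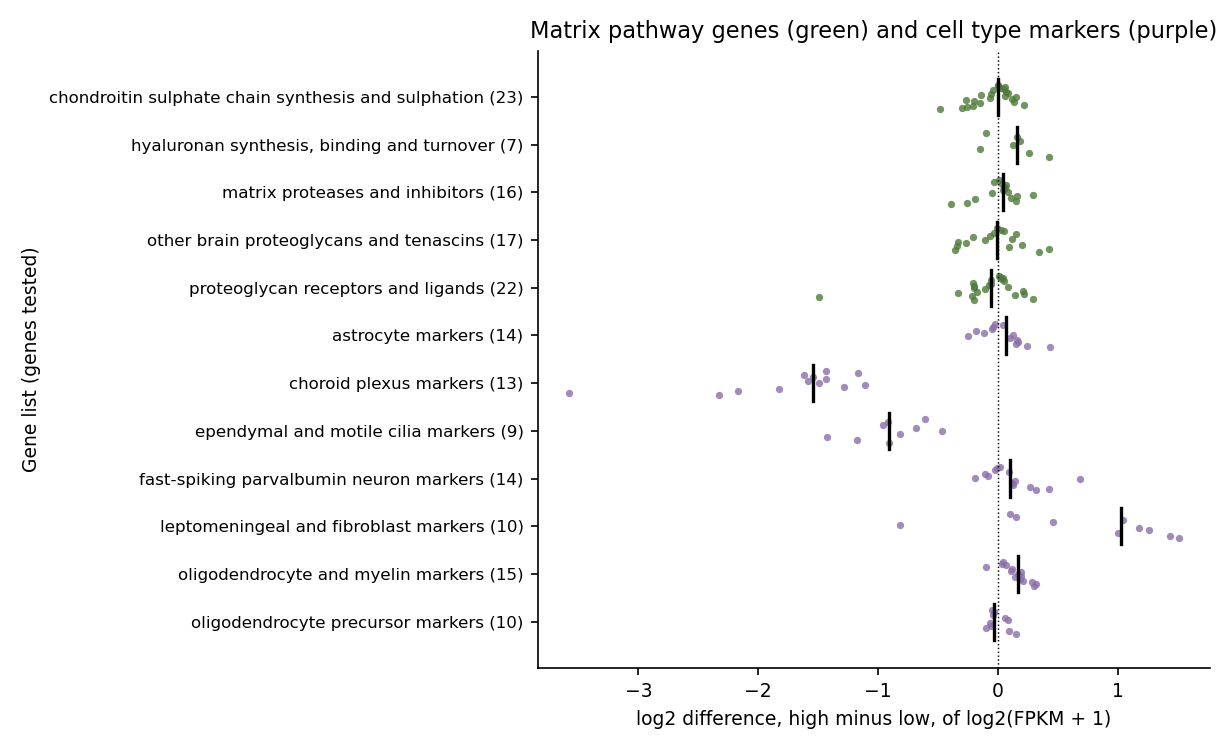
Difference between the groups, as high minus low in log2(FPKM + 1), for each tested gene (points) of the matrix pathway lists in green and the cell type marker lists in purple, with the list median as a black bar and the number of genes in brackets. The pathway medians lie between −0.056 and 0.16, and the widest differences are those of the choroid plexus (median −1.55), leptomeningeal (median 1.02) and ependymal (median −0.91) markers.

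Markers of the cells that make or carry the nets gave the context of these values, and limma called 0 of them over all genes. Pvalb, the parvalbumin gene, had 4.11, 9.05 and 5.16 FPKM across the high libraries and 4.28, 6.14 and 5.999 across the low libraries, with overlapping groups and a difference of 0.087 (limma adjusted p = 0.927). The list of fast-spiking neuron markers had 9 of 14 genes with a positive difference, a median of 0.10 and a summed FPKM of 344 to 367 in the high and 322 to 339 across the low libraries. Cplx1 was the largest part of that sum, at 198 ± 16.1 against 179 ± 14.6 FPKM with overlapping groups. It was named after its values were seen. Astrocyte markers had 8 of 14 with a positive difference and a median of 0.070, with summed FPKM of 1149 to 1435 against 1146 to 1252. That median was 0.16 without the high library 1, −0.044 without the high library 3 and −0.054 without the low libraries 1 and 3. The groups did not overlap for 3 of the 14, where 14.8% of all listed genes had groups without overlap. They were Gjb6 (0.43), S100b (0.24) and Atp1b2 (0.15), named after their values were seen, and each was higher in the high group. Their defining water channel gene Aqp4 had 9.82, 9.58 and 17.5 FPKM across the high libraries and 12.9, 18.1 and 12.3 across the low libraries, with a difference of −0.25, the most negative of the 14.

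Oligodendrocyte precursor markers were close to level, with 4 of 10 positive, a median of −0.037 and summed FPKM of 117 to 122 against 113 to 121. Pdgfra, their defining receptor gene, had 5.61 ± 0.329 against 5.78 ± 0.0280 FPKM. Leptomeningeal and fibroblast markers had 9 of 10 positive with summed FPKM of 25.5 to 105 against 28.6 to 63.2, and Slc6a13 at 2.43 to 11.8 against 0.683 to 3.92. Ependymal markers had 9 of 9 negative, with summed FPKM of 12.3 to 15.1 against 23.0 to 45.8 and Foxj1 at 1.78 ± 0.247 against 5.51 ± 2.21. All 9 had an unadjusted p under 0.05 by limma, against 8.39% of all genes. Groups did not overlap for 8 of the 9, against 14.8% of all listed genes. Their median of −0.91 was −0.50 without the low libraries 1 and 3. Some of them had a high-group mean under 1 FPKM and passed the minimum mean only through the low group. No value among the net genes was at 0, and the part of these cell types in the net gene values was not tested.

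The mean pattern of the 6 net genes above 1 FPKM ran from −0.076 in the high library 1 to 0.076 in the low library 2, in log2 units about the gene means. The genes with the highest Pearson r to it over the 6 libraries were Prdx1 (0.989), Arl5a (0.976), Dusp19 (0.973), Rab42 (0.972) and Cartpt (0.967). These r are the top of 12026 genes over few libraries that share their depth and composition, and describe likeness only. Cartpt, which encodes a neuropeptide precursor, had 10.04, 10.01 and 12.98 FPKM across the high libraries and 11.4, 15.8 and 15.4 across the low libraries.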

How the data were processed

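The authors deposited FPKM per gene for 6 libraries, in a table of 13170 genes with 0 values at 0. The tools were fastp, HISAT2 and StringTie and the build GRCm38, per the submitters' processing notes. The sources used here give no versions or settings and do not say whether strand was used. Recomputing the authors' 2 other deposited columns, to within 1e-06 in 13170 of 13170 genes, showed the log2 fold change to be that of the mean FPKM and the p-value to come from an unadjusted equal-variance test of FPKM. Neither column was used for the results.

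FPKM were transformed as log2(FPKM + 1), and the 12026 genes whose mean FPKM reached 1 were tested by limma (3.58.1, R 4.3.3) with a variance trend, 2-sided tests and Benjamini-Hochberg adjustment at 0.05. Acan and Vcan come from the same model without the filter. The fit was tested on simulated data, where 90% of 200 genes changed by 1 log2 unit were called and 6.74% of the calls were unchanged genes. The net gene differences, −0.31 to 0.22, are smaller than that change, and how often such differences would be called was not simulated. Ratios used exact permutation tests. Positions, GC content and length of the longest transcript are from GENCODE M21, matched by symbol for 99.0% of tested genes. Relative depth used genes under 1.5 FPKM in every library. Python 3.11.15 with pandas 2.3.3 was used otherwise.

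The members and gene lists were chosen with earlier results of these data known. Outside the 8 genes, named genes are pathway genes with an unadjusted p under 0.05 (up to 4 per list), Hapln2, Hapln3, Pvalb, 6 marker genes and the 5 genes most like the mean pattern. Alternatives were 2 pseudocounts, 2 filters, 3 scalings, library weights, 2 variance settings, the replicate block, GC and length, and libraries left out.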

Additional observations from a re-analysis of the deposited data

How the results depend on the processing

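Limma called 0 of the 8 net genes, 0 listed pathway or marker genes and 0 of all genes under each of the 20 alternatives. All alternatives kept the sign of 7 net genes. Bcan was the exception, at −0.0027 with quantile normalization, −0.042 with library weights, −0.025 once GC and length trends were taken out, with or without the replicate block, and −0.022 to 0.13 with 1 library left out. Hapln4 ranged from 0.18 to 0.30 and its smallest adjusted p was 0.268, with library weights. A mean FPKM of at least 5 left Acan, Vcan and Hapln1 untested. An unadjusted p under 0.05 was reached by 1009 genes, against 633 with a minimum of 5 FPKM, 1567 with library weights, 595 without low library 1 and 361 without low libraries 1 and 3, a fit that assumes the lone low library varies like the high ones. The same count among the net genes was 1, and 0 to 3 with 1 library left out. With the replicate block, 0 net genes had an unadjusted p under 0.05 (Hapln4 0.0734 by limma) and 743 genes in all. Same-numbered libraries did not deviate together (correlations −0.206 to −0.0939, against −0.0294 to 0.183 for the other pairs). The labels state no pairing, and so few libraries cannot exclude one. The median of the hyaluronan genes (0.16) was 0.29 with a pseudocount of 0.1 and 0.074 without high library 3, and that of the leptomeningeal markers ranged from 0.35 to 1.51. With 1 library left out, the medians of the chondroitin genes (−0.069 to 0.011), proteases (−0.019 to 0.076), other proteoglycans (−0.052 to 0.0064), astrocyte markers (−0.044 to 0.16) and precursor markers (−0.054 to 0.021) took both signs. Hapln1 over Vcan (−0.47) ranged from −1.02 to −0.18 and Hapln3 over Acan (0.51) from 0.027 to 0.75 with 1 or 2 libraries left out. Without absolute depth, the counting error of Acan and Vcan is unknown.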
